A study of Mus musculus with 8 samples.

Results

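The genes examined here are the kinases of the mitogen-activated protein (MAP) kinase cascade, read in the genital tubercle of male and female mouse embryos. Members were all probe sets annotated to a single gene whose symbol is Mapk, Map2k, Map3k or Map4k followed by a number. This gave 92 of the 45101 probe sets of the array, which read 35 of 18194 genes: 11 MAP kinases, 6 MAP2K genes, 15 MAP3K genes and 3 MAP4K genes. Other kinases of these families were not analysed here. The genital tubercle is the bud from which the external genitalia of either sex grow. Its region was dissected from 4 male and 4 female FVB/N embryos at 14 days post coitum (Theiler stage 22), with no treatment named in the labels, and each unpooled sample was amplified in 2 rounds and hybridized to 1 Affymetrix MOE430 array. The labels do not say whether embryos shared a litter, so p-values here cover the variation among the 8 samples alone, part of which could be technical.

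A MAP kinase cascade is a relay of protein kinases: a MAP4K or another upstream signal activates a MAP3K, the MAP3K phosphorylates a MAP2K, and the MAP2K phosphorylates a MAP kinase on a threonine and a tyrosine of its activation loop. The ERK arm mainly carries growth factor signals such as those of FGF and EGF receptors, the JNK and p38 arms respond to stress and cytokines, and the ERK5 arm responds to both. The cascade is switched by phosphorylation, which an array does not read, so the values below are transcript levels and not kinase activity. In the fetal mouse gonad, Map3k4 and the p38 arm are needed for expression of Sry, the gene that starts testis development. The tubercle measured here is a different organ.

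Promoters of the genes with the largest called differences in each direction are shown first, because they let the reader see what the start regions of oppositely changed members look like. They are the 2 members with the largest difference on any probe set higher in females (Mapk13 and Mapk7) and in males (Mapk8 and Map4k5), among members with a promoter in the RefSeq table (GRCm38.p6). Map4k4, at 1.32 toward males on its dimmest tested probe set, had no promoter among those read. Mapk8 stands here by a dimmer probe set singled out after its values were seen. Map4k5 was not called by the mean of its probe sets. Each promoter shown runs 5′ to 3′ on the gene's strand, from 250 bases before to 50 after the annotated start. Capitals mark GC boxes (GGGCGG) and CCAAT boxes (CCAAT) on either strand.
Mapk13 promoter, chr17:28769067-28769366, plus strand: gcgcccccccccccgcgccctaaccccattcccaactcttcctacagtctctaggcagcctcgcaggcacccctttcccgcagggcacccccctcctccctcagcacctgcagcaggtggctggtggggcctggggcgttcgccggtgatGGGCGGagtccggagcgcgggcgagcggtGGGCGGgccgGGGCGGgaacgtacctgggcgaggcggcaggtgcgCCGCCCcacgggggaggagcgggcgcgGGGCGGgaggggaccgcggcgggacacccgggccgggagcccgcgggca
Mapk7 promoter, chr11:61494212-61494511, minus strand: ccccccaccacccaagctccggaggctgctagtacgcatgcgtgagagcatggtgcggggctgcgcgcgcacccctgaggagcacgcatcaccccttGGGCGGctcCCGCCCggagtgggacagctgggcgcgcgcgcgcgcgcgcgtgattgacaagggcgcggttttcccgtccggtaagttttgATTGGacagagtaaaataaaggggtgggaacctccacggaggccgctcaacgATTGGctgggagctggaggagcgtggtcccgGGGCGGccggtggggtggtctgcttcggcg
Mapk8 promoter, chr14:33447109-33447408, minus strand: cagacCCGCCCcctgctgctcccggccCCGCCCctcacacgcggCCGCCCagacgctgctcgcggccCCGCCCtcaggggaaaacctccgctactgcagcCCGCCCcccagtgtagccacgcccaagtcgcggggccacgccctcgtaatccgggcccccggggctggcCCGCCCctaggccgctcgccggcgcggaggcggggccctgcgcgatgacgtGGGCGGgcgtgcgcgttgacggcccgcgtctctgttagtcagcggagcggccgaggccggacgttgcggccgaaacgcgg
Map4k5 promoter, chr12:69893114-69893413, minus strand: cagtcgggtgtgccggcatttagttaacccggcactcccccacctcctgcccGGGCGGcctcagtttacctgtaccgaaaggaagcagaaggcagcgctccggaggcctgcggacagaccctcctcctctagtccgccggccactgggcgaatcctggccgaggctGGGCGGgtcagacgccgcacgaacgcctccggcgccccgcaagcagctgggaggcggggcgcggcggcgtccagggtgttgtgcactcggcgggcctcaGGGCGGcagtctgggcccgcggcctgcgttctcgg
The Mapk13 promoter held 5 GC boxes and 78% G or C, that of Mapk7 held 3 GC boxes and 2 CCAAT boxes, the Mapk8 promoter shown held 7 GC boxes with 77.7% G or C, and that of Map4k5 held 3. The table holds another Mapk8 start, not shown, with 0 GC boxes and 34.3% G or C. The promoters read here were 41 of 30 member genes. A GC box lay in 61% of these 41 promoters and in 35.7% of all 32851 promoters, and their median G or C content was 65% against 52.7%. A CCAAT box lay in 29.3% of the member promoters and 37.4% of all. The AP-1 motif (TGANTCA), which the Jun and Fos factors downstream of the cascade bind, lay in 2 member promoters, those of Map2k6 and Map3k10, 4.88% against 7.81% of all. The cAMP response element (TGACGTCA) lay in 1, that of Mapk10, 2.44% against 1.79% of all. The palindromes of the androgen and glucocorticoid receptors (AGAACA and TGTTCT with 3 bases of any kind between, in 0.00913% of all promoters) and of the estrogen receptor (GGTCA and TGACC with 3 bases between, in 0.07%) lay in 0 of the 41. A match is a run of letters in this window and not a measured binding site.

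The values of each array are linear intensities already scaled to the same 2% trimmed mean of 1500. The Y-linked gene Eif2s3y read 31 to 71 on the female arrays and 4109 to 6136 on the male arrays, and Xist read 32465 to 35816 on the female arrays. On male arrays Xist was between 230 and 16036, and the highest was male replicate 3, whose Eif2s3y of 5571 lay at the male level. Of the other Y-linked genes read, its Kdm5d of 1012 was the lowest male value (1012 to 1471). Its Uty of 1716 lay within the male range (1335 to 2313). The cause of its Xist level was not tested. Some array-wide measures moved with sex. The 3′ control probe set of 18S ribosomal RNA read 8332.4 to 18925.9 in females and 21050.2 to 33633.9 in males, and the median intensity 184.4 to 206.6 and 211.7 to 249.4 (exact permutation test, two-sided, p = 0.0286 for each, the smallest that 4 against 4 allows, and 0.0857 after adjustment over 6 measures). The 5′ and middle 18S control probe sets overlapped between the sexes (exact permutation p = 0.2 for each), as did the 3′ to 5′ differences of the actin (p = 0.6) and Gapdh (p = 0.257) controls.

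Each difference below is the male value minus the female one in log2(intensity + 16), given ± its standard error (SE) from limma, and a probe set is called at a limma adjusted p under 0.05. The scale understates the change of dim probe sets. Probe sets whose mean log2 value reached the median of the array, 7.77, were tested: 22519 in all. Of the 92 member probe sets 57 were tested, and 29 of the 35 genes had at least 1 of them.

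The MAP kinase cascade genes differed between the sexes in both directions, with the calls spread over all tiers. Of 57 tested member probe sets, 22 were called (38.6%): 8 were higher in males, and 14 in females. Over all tested probe sets 40.5% were called (18.7% toward males, 21.9% toward females), so the share among the kinases was near that of the array. With each gene read by its brightest tested probe set, 15 of 29 genes were called (51.7%), 5 of them toward males and 10 toward females. Over the array 42.2% of 11489 genes were called, 14% toward males and 28.2% toward females. With each of the 29 genes read by the mean of its tested probe sets, 11 were called, 4 toward males and 7 toward females. The 4 toward males were Map3k1, Map3k2, Map3k12 and Mapk8. The 7 toward females were Map2k2, Map2k5, Map2k6, Map3k3, Map3k20, Mapk7 and Mapk13. The share over the array in that fit is not given here. The median difference over the tested member probe sets was -0.01, as it was over all tested probe sets, and over the 29 genes it was -0.12, again as over all genes. Female and male ranges were separate for 22 of the 57 (38.6%), beside 37.1% of all tested probe sets.

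Of the 22 calls, 17 were made in each fit that left out 1 array. The other 5 were those of Map3k12, Mapk14, Mapk8 on its brightest probe set, Mapk9 and Map4k4 on its third-brightest, and they are named as such below. With each array centred on its median, every difference fell by 0.21, the calls among all probe sets turned from 46.1% to 23.8% higher in males, and the members turned from 8 and 14 to 4 higher in males and 24 higher in females. None of the 22 changed sign there, and 18 were still called. The calls lost were those of Map3k1, Map3k12, Mapk9 and the brightest Mapk8 probe set. With the 3′ 18S level as a covariate, limma called 0 of the 57 at an adjusted p under 0.05 (smallest 0.0562), and 10 had an unadjusted p under 0.05. In that fit 1.84% of all probe sets were called, and the sign of all 22 called members stayed. The 3′ level did not overlap between the sexes, so that fit cannot fully separate it from sex. The 5′ or the middle 18S level as a covariate left 15 of the 22 calls in each case, with 29.4% and 27.4% of all probe sets called. The 7 lost with either were those of Map3k1, Map3k4, Map3k12, Map3k20, Mapk9, Mapk14 and the brightest Mapk8 probe set.

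**Figure D1:**
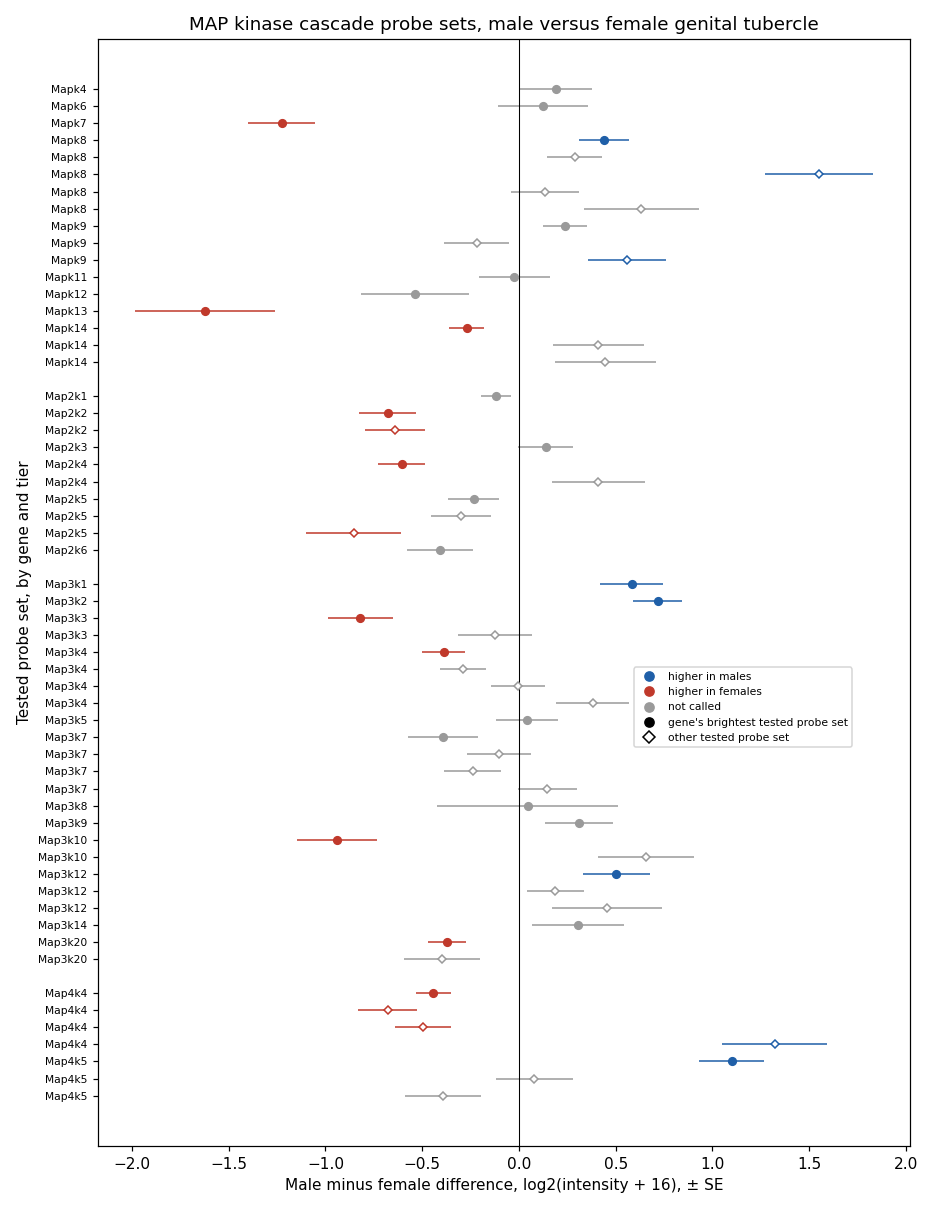
Male minus female difference of each of the 57 tested member probe sets, on the log2(intensity + 16) scale with the SE of the limma fit, grouped by tier. Filled circles are each gene's brightest tested probe set and open diamonds its others. Blue marks 8 probe sets called higher in males, red 14 called higher in females and grey 35 not called, and every tier but MAP2K holds both colours.

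Among the MAP kinases, 4 of 9 tested genes were called (44.4%, beside 42.2% of all genes). The p38 genes had 2 of 4 called, both toward females, and the JNK genes 1 of 2, toward males. The p38 kinases are activated by stress and cytokines and include Mapk11, Mapk12, Mapk13 and Mapk14. Mapk13, which encodes p38 delta and is known from epithelia, had the largest difference of any tested member. It read 757.7, 605.4, 545.7 and 406.5 on the female arrays and 294.7, 279.7, 74.9 and 135.7 on the male arrays. All female arrays lay above all male arrays, and the difference was -1.62 ± 0.36 (SE, limma adjusted p = 0.00423). The probe set passed the filter on its mean over all arrays, through the female values. The mean log2 value of its male arrays alone lay below the filter cut. With the 3′ 18S level as a covariate the difference was -1.06 ± 0.62 (limma adjusted p = 0.351). Of 14 tested epithelial marker genes 6 were called (42.9%, beside 42.2% of all genes), with a median of -0.12, as over all genes. The 5 toward females were the keratins Krt5, Krt8, Krt14 and Krt18 and the claudin Cldn6, and Trp63 was called toward males. The other 8 were not called, among them Epcam (0.02 ± 0.08) and Cdh1 (-0.07 ± 0.10). The summed intensity of that list was 74724 to 85521 in females and 70817 to 77487 in males, and its part in the Mapk13 difference was not tested. In a dissected region, fewer cells of a type and less RNA per cell cannot be told apart.

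Mapk14 encodes p38 alpha, the widely expressed p38 kinase, and its gene is the next protein-coding gene to Mapk13 on chromosome 17. On its brightest probe set it read 10839.0, 11168.5, 13288.0 and 12638.1 in females and 9346.0, 11101.8, 9688.3 and 9534.2 in males. The groups overlapped through male replicate 2, and the difference was small (-0.27 ± 0.09, limma adjusted p = 0.0332). The call was lost in 5 of the fits that left out 1 array (limma adjusted p up to 0.112) and with the replicate number as a block (0.0514). The other tested Mapk14 probe sets lay at 0.41 and 0.45 and were not called, and the mean of the 3 turned to the opposite sign (0.20 ± 0.14, limma adjusted p = 0.276, not called). Mapk11 and Mapk12, neighbours on chromosome 15, lay at -0.03 ± 0.18 and -0.54 ± 0.28 and were not called (limma adjusted p = 0.926 and 0.144).

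The JNK kinases phosphorylate Jun and are encoded by Mapk8, Mapk9 and Mapk10. The 5 tested Mapk8 probe sets lay between 0.13 and 1.55, and 2 were called. The brightest read 3675.9, 4762.3, 4581.7 and 3980.6 in females and 4665.0, 5668.3, 6677.4 and 6116.5 in males. Only the lowest male array fell within the female range, and the difference was 0.44 ± 0.13 (limma adjusted p = 0.0176). A dimmer probe set of the same gene, singled out after its values were seen, read 407.9, 876.4, 860.7 and 739.5 in females and 3051.5, 1524.7, 2526.9 and 1521.3 in males. Its groups were well separated, and at 1.55 ± 0.28 (limma adjusted p = 0.00119) it had the largest member difference toward males. With the 3′ 18S level as a covariate this difference was 0.49 ± 0.35 (limma adjusted p = 0.443), and with the 5′ level it was 1.19 (0.00529). The brightest Mapk8 probe set lay at 0.23 ± 0.23 with the 3′ level, and its call ended without female replicate 1 or male replicate 3 (highest limma adjusted p = 0.0561).

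Mapk9 was called on the dimmest of its 3 tested probe sets (0.56 ± 0.20, limma adjusted p = 0.0417), a call lost in 6 of the fits that left out 1 array. On the brightest it lay at 0.24 ± 0.12 and was not called. The remaining Mapk9 probe set lay at -0.22, in the opposite direction, and was not called. With the mean of the 3 the gene was not called (0.19 ± 0.12, limma adjusted p = 0.224). Mapk10, the JNK gene best known from neurons, had no tested probe set.

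Mapk7 encodes ERK5, a MAP kinase with a long carboxyl-terminal tail that can act in transcription. It had the smallest p of all members. It read 927.9, 952.4, 928.5 and 847.4 on the female arrays and 500.7, 320.0, 358.6 and 367.0 on the male arrays. The female arrays lay close together and far above the male arrays, with a difference of -1.23 ± 0.17 (limma adjusted p = 3.14e-04). Under the 3′ 18S covariate the difference was -1.32 ± 0.32 (limma adjusted p = 0.0562), about as large, with a wider error. The atypical MAP kinases Mapk4 and Mapk6, which encode ERK4 and ERK3, lay at 0.19 ± 0.19 and 0.13 ± 0.23 and were not called.

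**Figure D2:**
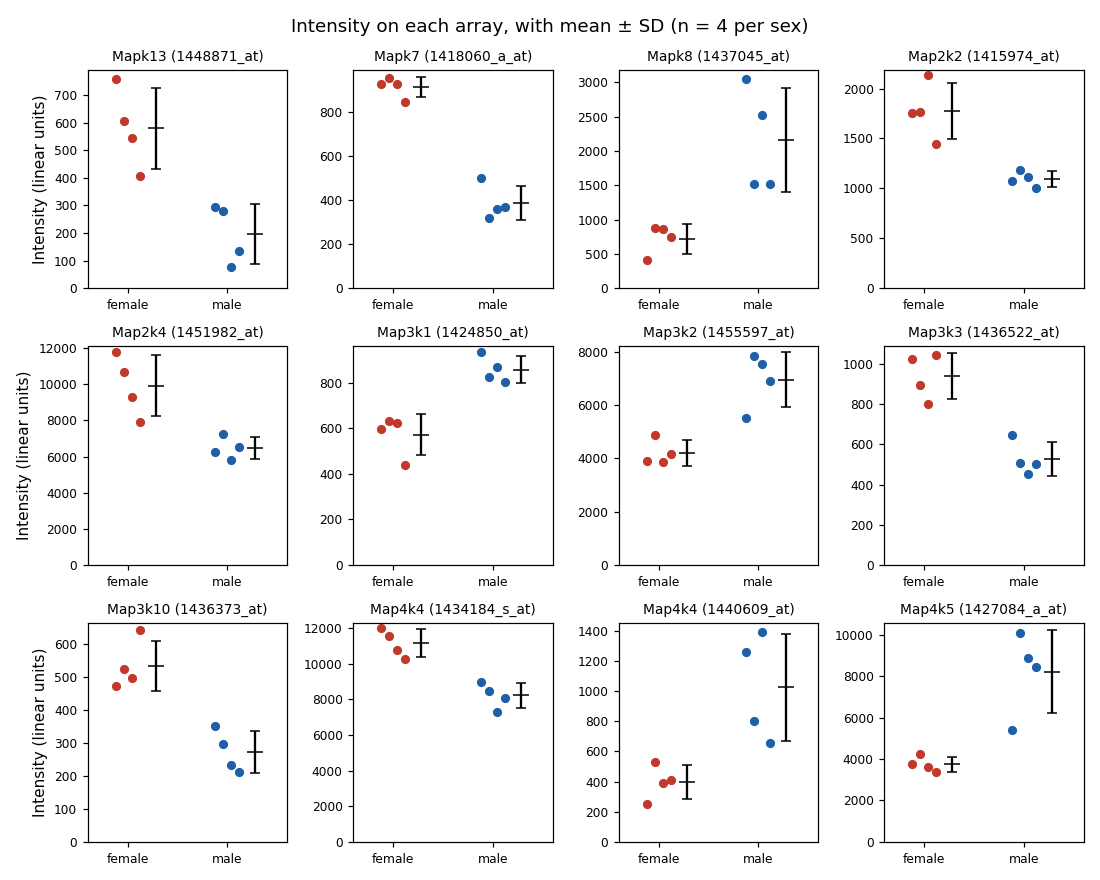
Intensity on each of the 8 arrays for 12 called probe sets of 11 genes, with females in red and males in blue, on linear axes that start at 0. Black marks give the mean ± SD of 4 arrays. In each panel the female and male arrays do not overlap, as for Mapk7 at 847.4 to 952.4 in females and 320.0 to 500.7 in males. The panels are a selection. The called probe sets of Map3k12 and Mapk14 and the brightest of Mapk8, whose ranges overlap, are not shown. Mapk8 is shown by a dimmer probe set singled out after its values were seen. Ranges did not overlap for 37.1% of all tested probe sets.

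The MAP2K tier, whose kinases each act on a narrow set of MAP kinases, had 4 of 10 tested probe sets called toward females and 0 toward males (40%, beside 40.5% of all probe sets). By their brightest probe set 2 of 6 genes were called (33.3%, beside 42.2% of all genes), and 2 of the 4 called probe sets read 1 gene, Map2k2. Map2k2 encodes MEK2, which activates the ERKs. Its brightest probe set read 1752.0, 1766.9, 2133.0 and 1446.6 in females and 1076.8, 1186.3, 1114.4 and 999.8 in males. The ranges were apart, and the difference was -0.68 ± 0.15 (limma adjusted p = 0.00342), close to the -0.64 ± 0.16 of its other probe set, which was called as well. Map2k1, which encodes MEK1, differed by -0.12 ± 0.08 and was not called (limma adjusted p = 0.233). The difference between these MEK genes was not tested.

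Map2k4 encodes an activator of JNK. It read 11787.2, 10664.8, 9297.9 and 7935.1 on the female arrays and 6225.2, 7257.0, 5809.6 and 6552.8 on the male arrays. All female arrays were above all male arrays (-0.61 ± 0.12, limma adjusted p = 0.00244), which is the direction opposite to that of Mapk8. With the 3′ 18S level as a covariate the difference was -0.38 ± 0.21 (limma adjusted p = 0.333). A dimmer Map2k4 probe set lay at 0.41 ± 0.24 and was not called, and with the mean of both probe sets the gene was not called (-0.10 ± 0.14, limma adjusted p = 0.604).

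Map2k5 encodes the activator of ERK5. Its 3 tested probe sets lay at -0.23, -0.30 and -0.85, and the dimmest was called (limma adjusted p = 0.016), with 413.8, 425.9, 396.2 and 637.9 in females and 181.6, 195.3, 318.8 and 326.2 in males. With the mean of the tested probe sets the gene was called (-0.46 ± 0.12, limma adjusted p = 0.0055). The p38 activators Map2k3 and Map2k6 lay at 0.14 ± 0.14 and -0.41 ± 0.17 and were not called, although the ranges of Map2k6 did not overlap. In the fit on gene means Map2k6 was called toward females (limma adjusted p = 0.0452).

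The MAP3K tier is the entry of stress, cytokine and growth factor signals into the cascade and was called in both directions. By their brightest probe set 3 of 12 tested genes were called toward males and 4 toward females (58.3%, beside 42.2% of all genes), with a median of 0.04. By probe sets the share was lower than that of the array, with 7 of 23 tested called (30.4%, beside 40.5% of all probe sets). Map3k2 and Map3k3 encode the closely related kinases MEKK2 and MEKK3, both of which can activate the ERK5 arm, and they were called in opposite directions. Map3k2 read 3918.7, 4882.4, 3846.2 and 4164.3 in females and 5529.4, 7846.6, 7539.5 and 6905.3 in males. Every male array lay above every female array (0.72 ± 0.13, limma adjusted p = 0.00106). Map3k3 read 1024.3, 894.1, 800.0 and 1045.0 in females and 647.7, 508.2, 451.2 and 504.7 in males. Every male array lay below every female array (-0.82 ± 0.17, limma adjusted p = 0.00277). The dimmer tested probe set of Map3k3 lay at -0.12 ± 0.19 and was not called.

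Map3k1 encodes MEKK1, which acts mainly on the JNK arm and is needed for eyelid closure in the mouse embryo. It read 596.2, 632.5, 621.4 and 440.8 in females and 934.9, 824.6, 869.2 and 803.5 in males. The ranges were apart (0.58 ± 0.17, limma adjusted p = 0.0147), and the call was lost with median centring (0.108) and without male replicates 1 and 3 (0.0703). Map3k12 encodes DLK, a kinase of axons that acts on JNK. It read 1113.1, 1478.1, 1348.7 and 1844.4 in females and 1828.6, 1760.0, 2498.9 and 2081.4 in males. Female replicate 4 lay within the male range (0.50 ± 0.17, limma adjusted p = 0.0344), and the call was lost in 5 of the fits without 1 array (limma adjusted p up to 0.102). With the 3′ 18S level as a covariate the difference was 0.08 ± 0.28 (limma adjusted p = 0.908), and the call was also lost with the 5′ (0.148) and middle (0.182) levels. Of 6 tested neuron marker genes 5 were called (83.3%, beside 42.2% of all genes). Stmn2 (1.43), Nefm (0.49) and Nefl (0.46) were higher in males, and Gap43 (-0.48) and Isl2 (-0.69) in females. Another tested Nefl probe set lay at 0.09 and was not called. The summed neuron list read 14562 to 17500 in females and 17577 to 23028 in males. Its part in the Map3k12 difference was not tested.

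Map3k10 encodes the mixed lineage kinase MLK2. Its brightest probe set read 473.6, 524.0, 498.3 and 642.4 in females and 353.4, 296.9, 234.4 and 211.3 in males. The ranges were apart (-0.94 ± 0.21, limma adjusted p = 0.0038). The other tested probe set lay at 0.66 ± 0.25 in the opposite direction and missed the threshold (limma adjusted p = 0.0504), and the mean of both was not called (-0.14 ± 0.19, limma adjusted p = 0.573). Map3k4, the gonadal sex determination gene named above, was lower in males by 0.39 on its brightest probe set (-0.39 ± 0.11, limma adjusted p = 0.015). That probe set read 5512.9 to 6228.9 in females and 3880.3 to 5071.9 in males, and with the 3′ 18S covariate it lay at -0.24 ± 0.20. Its other tested probe sets lay at -0.29, -0.01 and 0.38 and were not called, and their mean with the brightest was not called (-0.08 ± 0.11, limma adjusted p = 0.608). Map3k20, which encodes the ribosome stress kinase ZAK, was higher in females (-0.37 ± 0.10, limma adjusted p = 0.0104), and it lay at -0.25 ± 0.18 with the 3′ 18S covariate. Its other tested probe set lay at -0.40 ± 0.20.

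The remaining tested MAP3K genes were not called. Map3k5, which encodes the oxidative stress kinase ASK1, lay at 0.04 ± 0.16, and Map3k7, which encodes TAK1 of the TGF-beta and cytokine pathways, at -0.39 ± 0.18 on the brightest of 4 tested probe sets. Map3k8 (0.05 ± 0.47), Map3k9 (0.31 ± 0.17) and Map3k14 (0.31 ± 0.24), the last of which encodes the NIK kinase of the noncanonical NF-kappa-B pathway, completed the tier.

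Map4k4 and Map4k5, the tested genes at the top of the cascade, differed in opposite directions on their brightest probe sets. Map4k5 encodes a germinal centre kinase that acts on JNK. It read 3747.5, 4222.6, 3639.7 and 3371.3 in females and 5416.6, 10112.9, 8898.1 and 8459.3 in males. All male arrays lay above the female arrays, with male replicate 1 the lowest of them (1.10 ± 0.17, limma adjusted p = 4.50e-04). It held this size under the 3′ 18S covariate (1.13 ± 0.30), where the limma adjusted p was 0.0694. Its dimmer probe sets lay at 0.08 and -0.39 and were not called, and with the mean of the 3 the gene was not called (0.26 ± 0.15, limma adjusted p = 0.177).

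Map4k4 encodes a kinase of cytoskeletal and JNK signalling, and it was the 1 member gene with probe sets called in both directions. The brightest read 12034.8, 11583.1, 10747.8 and 10279.6 in females and 8998.6, 8464.9, 7311.5 and 8097.2 in males, without overlap (-0.44 ± 0.09, limma adjusted p = 0.0025). Another 2 were also higher in females, by -0.68 ± 0.15 and -0.50 ± 0.15, the second of which was lost without female replicate 2 or 3 (highest limma adjusted p = 0.0544). The dimmest tested probe set read 253.0, 529.4, 389.8 and 407.3 in females and 1259.0, 799.3, 1394.0 and 654.8 in males. It lay without overlap in the opposite direction (1.32 ± 0.27, limma adjusted p = 0.00272). On this probe set the 2 highest arrays, male replicates 3 and 1, were also the 2 highest in the 3′ 18S control. With that control as a covariate the difference was 0.20 ± 0.31 (limma adjusted p = 0.759), while with the 5′ control it was 0.91 (0.0102). The 3′ 18S level did not overlap between the sexes, so its part in this difference cannot be told apart from that of sex. With the mean of its 4 tested probe sets Map4k4 was not called (-0.07 ± 0.13, limma adjusted p = 0.66).

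Probe sets of one gene often disagreed. Of 14 member genes with at least 2 tested probe sets, 8 (57.1%) had differences of both signs, beside 47.8% of 4934 such genes over the array, and the median spread between probe sets of a gene was 0.74, beside 0.54. In 10 of the 14 (71.4%) the dimmest tested probe set lay further toward males than the brightest, beside 63.9% over the array. The median difference was -0.38 on the brightest and 0.40 on the dimmest of the member genes, and -0.07 and 0.12 over the array. Of the 3 member genes with several called probe sets, 1 (Map4k4) had them in opposite directions, beside 24.5% of 1512 such genes. The exceptions to the order were Map2k5, Map3k12, Map3k20 and Map4k5. The bright members, at or above the array's upper quartile, had 7 probe sets called higher in females and 4 in males of 22. This was 50%, beside 49.9% of all probe sets of that brightness. The dimmer tested members had 7 and 4 of 35 (31.4%, beside 31.1% of all the dimmer tested probe sets). The medians of the bright and the dimmer members were -0.18 and 0.13, beside -0.06 and 0.05 over all probe sets of these brightness classes.

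**Figure D3:**
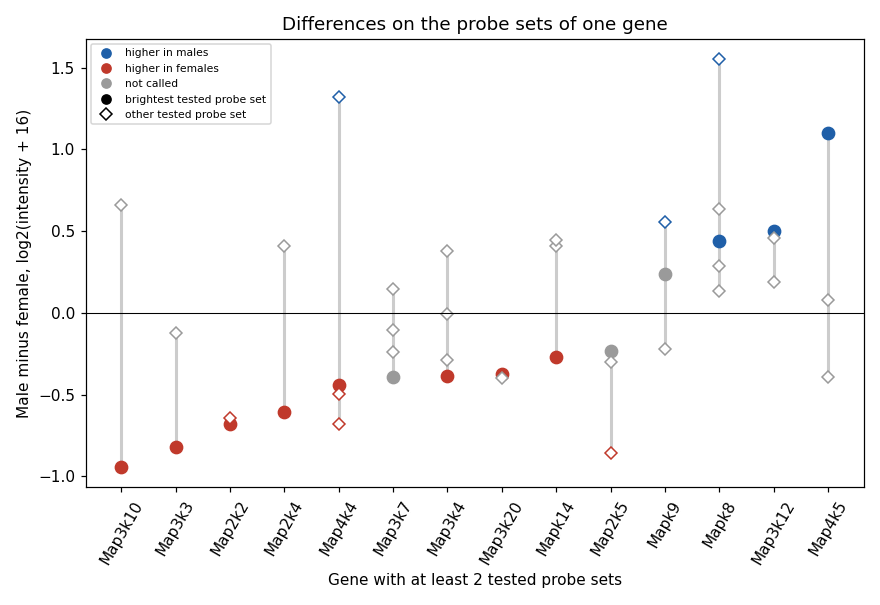
Male minus female difference, on the log2(intensity + 16) scale, of every tested probe set of the 14 member genes that had at least 2, with genes ordered by their brightest probe set. A line joins the probe sets of a gene. Map4k4 spans from -0.68 to 1.32 and Map3k10 from -0.94 to 0.66, while Map2k2 and Map3k20 have probe sets at nearly the same value.

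The 35 member probe sets below the filter read between 2.9 and 352.1 on single arrays. They include all probe sets of 6 genes: Mapk10, Mapk15, Map3k6, Map3k11, Map3k21 and Map4k1, the last encoding a kinase known from blood cells. When no filter was applied, 2 of the 35 were called. Map3k11, which encodes the mixed lineage kinase MLK3, read 64.3, 94.3, 158.2 and 116.9 in females and 10.4, 8.1, 10.3 and 9.5 in males. All male arrays were near the lowest values of the members (-2.23 in the fit with no filter, limma adjusted p = 6.97e-04). Map3k21 read 87.0, 75.0, 76.0 and 140.3 in females and 155.4, 225.8, 209.0 and 246.2 in males, higher on every male array (1.05, limma adjusted p = 0.0264 with no filter). In that fit 19.4% of 45037 probe sets were called, a share that includes the brighter probe sets above the filter. The share among probe sets below the filter alone was not computed, so the 2 of 35 cannot be set against it.

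The other genes of the pathway were read in lists placed around the kinases, each gene by its brightest tested probe set. In the Ras and Raf module, which carries receptor signals to the ERK arm, 4 of 23 tested genes were called toward males and 1 toward females (21.7% called, beside 42.2% of all genes). Sos2, an exchange factor that activates Ras, was higher in males by 0.70 ± 0.11. The Raf kinase Araf (0.61 ± 0.17) and the Ras-related GTPase Rras2 (0.38 ± 0.08) were higher in males on their brightest probe sets. Other tested probe sets of Araf lay at -0.39, 0.48, 0.20 and 0.03, and that of Rras2 at 0.01, and none of these was called. In the list of scaffolds and adaptors 4 of 23 were called toward males and 9 toward females (56.5%, beside 42.2% of all genes). Sh3rf1, a JNK scaffold also called POSH, rose from 3529 ± 628.3 (SD, n = 4) in females to 7427 ± 1018 in males (1.08 ± 0.14, limma adjusted p = 1.74e-04). The other tested Sh3rf1 probe set lay at 0.13 and was not called. Gadd45g, which binds and activates Map3k4, fell from 1091 ± 72.61 in females to 545.1 ± 107.4 in males (-0.998 ± 0.17, limma adjusted p = 8.89e-04). The beta-arrestin gene Arrb1 differed by -0.72 ± 0.20.

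Of 18 tested MAP kinase phosphatases, the enzymes that switch the kinases off, 2 were called toward males and 4 toward females. This was 33.3%, beside 42.2% of all genes. Dusp9 differed by -0.96 ± 0.16 and Dusp1 by -0.83 ± 0.13, and Dusp16, which acts on JNK and p38, was higher in males (0.85 ± 0.09). Among 8 tested kinases activated by MAP kinases, 1 was higher in males and 2 in females (37.5%, beside 42.2% of all genes). The p38 target Mapkapk3 differed by -0.91 ± 0.22 and Mknk2, a kinase of the translation factor eIF4E, by -0.84 ± 0.09. The ribosomal S6 kinase gene Rps6ka6 differed by 0.54 ± 0.10. Other tested probe sets of Mapkapk3 and Rps6ka6 lay at -0.36 and 0.17 and were not called. Of 19 tested transcription factors that MAP kinases phosphorylate, 5 were called toward males and 4 toward females (47.4%, beside 42.2% of all genes). Ets1 differed by 0.77 ± 0.10, Ddit3 by -0.66 ± 0.21 and Myc by -0.58 ± 0.14. Other tested Ets1 probe sets lay at 0.79, which was called, and at -0.30, which was not.

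**Figure D4:**
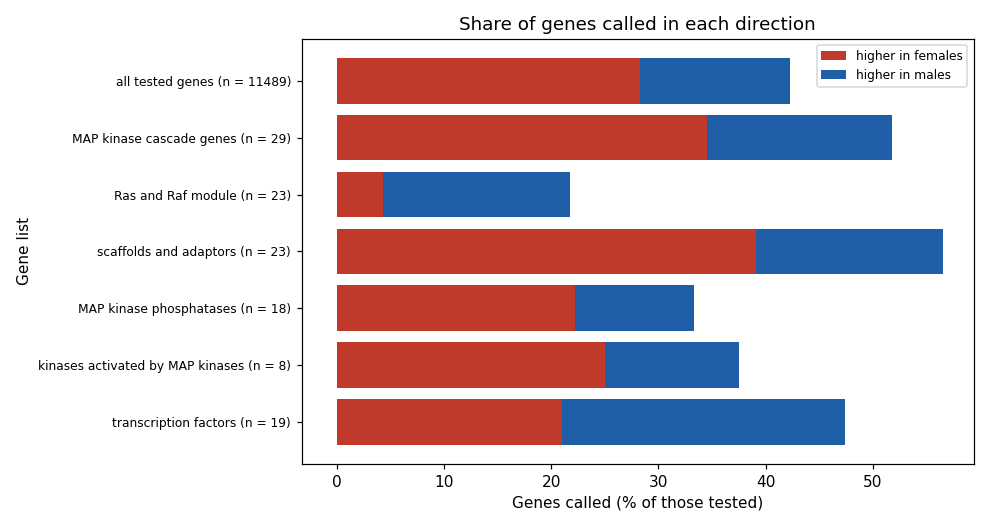
Percentage of tested genes called higher in females (red) and higher in males (blue), for all genes, the MAP kinase cascade genes and 5 lists of the surrounding pathway, with the number tested beside each name. All genes reach 42.2%, the cascade genes 51.7%, the scaffolds 56.5% and the Ras and Raf module 21.7%.

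Marker genes of other cell types in the region were read the same way, beside the 42.2% of all genes that were called. Skeletal muscle genes were called toward males in 7 of 12 cases (58.3%) and toward females in 0, with a summed intensity of 8559 to 19697 in females and 22840 to 35438 in males. Of 5 tested cartilage genes 2 were higher in males (40%, summed 6694 to 7182 against 10553 to 12981). Blood endothelial genes had 3 of 8 called toward males and 1 toward females (50%, summed 11451 to 13209 against 13417 to 16220), and macrophage genes had 2 of 7 and 1 (42.9%, summed 5908 to 7137 against 7763 to 9222). Schwann cell genes had 2 of 4 called toward males and 0 toward females (50%), smooth muscle genes 1 of 4 and 0 (25%), mesenchyme genes 3 of 10 and 2 (50%), and erythroid genes 1 of 5 and 2 (60%). The summed levels of these last 4 lists overlapped between the sexes. In each list 0 probe sets read 0. Their part in the differences of the kinases was not tested.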

How the data were processed

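Expression was measured in 8 samples, 1 array each. The authors deposited 1 linear intensity per probe set. The submitters' processing notes name GCOS (Affymetrix software) without a version. Array values were not normalized again. Of 45101 probe sets, 64 were controls, and 34945 of the others named 1 gene in the platform annotation (932 several, 9160 none). Control probe sets were left out and log2(value + 16) was tested with limma (version 3.58.1, R version 4.3.3), using lmFit, then eBayes with trend. The model held sex alone, and p-values were Benjamini-Hochberg adjusted over the 22519 probe sets tested. The number of arrays limits the precision. No pair of arrays was identical. Array measures had exact permutation tests over 70 assignments. The sex given in each title set the groups. All 92 member probe sets matched the reference gene table by gene identifier. A gene stands by its brightest tested probe set, and 17 tested members have a suffix for probes shared between transcripts. Members, lists and alternatives were chosen with earlier results of these data known. Values on every array were given for the 10 called genes with the largest differences on their brightest probe set, genes called in both directions and the called gene with the smallest p of each tier. Up to 3 called genes were named per pathway list, and 1 of the lists is not reported here. A few further members were added after their values were seen. The scripts were tested on simulated data. Alternatives were other normalizations, pseudocounts, filters, variance models, array weights, the replicate block, an 18S covariate and each array left out. The fit without male replicates 1 and 3 was added after seeing the data. The 18S alternative had been planned without naming which of 3 control probe sets: the middle one was run first, the 3′ one was then taken as the planned setting because an earlier analysis of these data had used it, and the 5′ and middle ones were kept as added settings. Their results differ and are all given. Member promoters on 1 chromosome were not used here, while the shares over all promoters were computed without that exclusion.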

Additional observations from a re-analysis of the deposited data

Results flagged for a closer look

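In 5 of the 114 groups of 4 arrays formed by the tested member probe sets, 1 array lay far from the other 3, where chance gives about 1 in 20. All were female arrays. Female replicate 2 read 702.2 for Map2k2 on its dimmer probe set, against 818.2 to 831.8 on the other female arrays, and 1479.8 for Map2k3, against 1108.1 to 1154.8. Female replicate 4 read 637.9 for Map2k5 on its dimmest tested probe set, against 396.2 to 425.9. Female replicate 3 read 584 for Mapk11, against 427.4 to 451.6. Female replicate 1 read 333.3 for Mapk4, against 286.3 to 288.9. The Map2k2 and Map2k5 probe sets were called in each fit that left out 1 array, and the other 3 were not called.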

How the results depend on the processing

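Among the alternatives other than the 18S covariates and the fits without arrays, member probe sets kept their direction and side of the threshold in 453 cases, lost a call in 10 and gained one in 15. Median centring gave 2375 probe sets higher in males and 7588 in females over the array, 4 and 24 member probe sets, and 2 member genes higher in males. The upper-quartile filter, which tests fewer probe sets, gave 5890 calls over the array, 2476 of them higher in males, 11 member probe sets (4 in males, 7 in females), 6 member genes higher in females and 22 marker genes. The 3′ 18S covariate gave 414 calls over the array (251 higher in males, 163 in females), 0 member probe sets and 0 member genes in either direction, 3 genes of the pathway lists and 6 marker genes, with 10 member probe sets at an unadjusted p under 0.05. The choice of 18S probe set mattered: the 3′ one left 0 of the 22 member calls and the others 15 each. The 3′ level did not overlap between the sexes, so its fit cannot fully separate the 18S level from sex. SEs in that fit were wider, as for the brightest Map2k2 probe set, at 0.27 against 0.15. The 5′ covariate gave 5 member probe sets higher in males and 9 member genes, 2 of them in males. The middle covariate gave the same 3 counts, and 2748 probe sets of the array higher in males. Without male replicates 1 and 3, member genes higher in males were 3. Leaving out each array gave 7358 to 9468 calls over the array, 18 to 24 member probe sets (5 to 10 in males, 13 to 14 in females) and 12 to 15 member genes (3 to 5 in males, 9 to 10 in females). The lowest counts in males, 5 probe sets and 3 genes, came without female replicate 1 and without male replicate 3. With the replicate number as a block, 8460 probe sets and 21 of the 22 members were called. The labels give same-numbered samples no shared litter or day, same-numbered deviations correlated between -0.13 and 0.04, and 1 of 4 female arrays correlated best with its own number. The cause of these shifts was not tested. Dim probe sets limit what can be read, since 35 member probe sets lay below the filter.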
